A study of Bos indicus with 72 samples.

Results

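Among the 24616 genes counted in the hypothalamus and the pituitary of 12 Brahman heifers, 67 varied alike from animal to animal in the 2 tissues. They were chosen on log2(CPM+1), where CPM is the read count of a gene scaled to a fixed total of reads in genes. Each had an SD above 0.35 across the 12 hypothalamus libraries and across the 12 pituitary libraries, and a Pearson's r above 0.8 between the tissues over animal numbers, after each tissue was centred on its mean. Both SD thresholds were passed by 2993 genes, of which the 67 members make up 2.24%. The values that chose the members, their spread and their r in these 2 tissues, are a description below and carry no test. The tests concern the uterus, the liver and the ovaries, the difference in mean level between the tissues, and puberty. For the difference between the tissues the choice lowers the errors, so its p-values are a description.

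Brahman is a Bos indicus beef breed, and the study compared heifers before and after puberty. The post-pubertal and the pre-pubertal group each gave 6 libraries of pituitary, hypothalamus, uterus, liver, left ovary and right ovary, 1 library per animal and tissue, 72 in all. All libraries were made from total RNA, and the labels name no treatment. Animals 2054 and 2059 carry 1 puberty label in the uterus and liver and the other label in the remaining 4 tissues, so puberty was compared there without them, in 5 animals against 5. File names place the libraries of each tissue in 2 sets of 6, named by a code and the letters A to F, with the same animal numbers in a set in every tissue and both puberty groups in each set. Reads counted in genes lay between 4427245 and 9759919 per library in the pituitary, 4837274 and 10406817 in the hypothalamus, 17091111 and 23701591 in the uterus and 18805152 and 25905298 in the liver. The ovary libraries held only 184808 to 334454 such reads, so members at low levels could not be followed there.

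The hypothalamus governs puberty through a releasing hormone that reaches the pituitary by a short portal circulation. The pituitary answers with gonadotropins, which act on the ovary, and ovarian steroids act in turn on the uterus, the liver, the pituitary and the brain. A gene whose level differs between animals may do so in 1 tissue or in many, and sampling several tissues of the same animal shows which. The files name genes by Ensembl identifiers and do not pair them with gene names, so the labelled tissues could not be checked against marker genes, functions are not given, and 4 members are followed by identifier. These are the 2 most abundant members of the on/off kind and the 2 most abundant of the graded kind, as defined below.

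The members were genes of modest level with a wide spread between animals. The mean level of a member was 4.36 CPM in the pituitary at the median, from 0.245 to 131 CPM, against a median of 17.9 CPM over the 15278 genes past a low filter of 5 reads in 2 libraries. In the hypothalamus the median was 4.90 CPM, from 0.202 to 154 CPM, against 16.7 CPM over 15509 genes. The highest library exceeded the lowest by a median of 4.64-fold in the pituitary and 3.95-fold in the hypothalamus on CPM+1, where all genes past the filter gave 2.12-fold and 1.87-fold. In the pituitary 24 members had a library with 0 reads, and in the hypothalamus 20 had one. Of the 67 members, 39 averaged at least 1 CPM or RPKM (a level scaled both to the length of the gene and to the total of the library) in the pituitary, hypothalamus, uterus and liver alike, and 6 stayed under that level in all of these tissues. Most members thus had reads in each of these tissues.

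**Figure D1:**
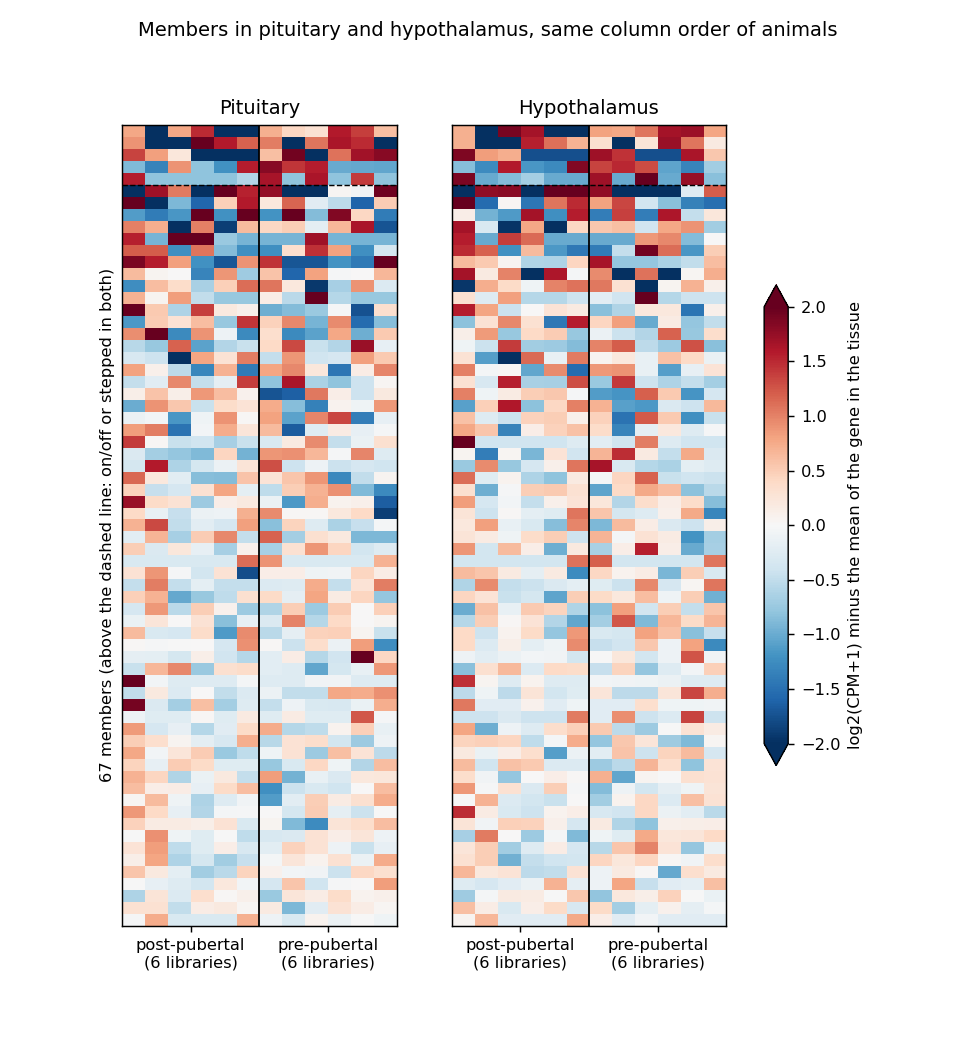
Level of the 67 members in the 12 pituitary (left) and 12 hypothalamus libraries (right), as log2(CPM+1) minus the mean of the gene in that tissue, with rows for genes and columns for libraries in the same order of animals on both sides, post-pubertal left of pre-pubertal. Rows above the dashed line are the 5 members on/off or stepped in both tissues; high and low cells recur at the same column in both tissues, as the selection required.

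The r between pituitary and hypothalamus ran from 0.803 to 0.993 among the members, with a median of 0.855, and 19 members exceeded 0.9. The nearest gene outside had an r of 0.797, the smaller of the 2 SDs was 0.355 in the member nearest that threshold and 0.338 in the nearest gene outside, and no gene past the SD thresholds had an r below -0.8. Over the 2993 genes past the SD thresholds the median r was 0.092. The choice rested on few animals for many members: 34 kept an r above 0.8 whichever animal was left out, and the other 33 fell below it without 1 of them. With ranks in place of values 31 of the members stayed above 0.8, with a median Spearman's rho of 0.797. Within library sets the median r of the members was 0.919 in the first set and 0.867 in the second, and 62 members stayed above 0.8 once each set was centred. With each puberty group centred, 61 did. The r between a member's level and the gene reads of the library had a median of 0.11 in the pituitary and -0.14 in the hypothalamus, and its size exceeded 0.8 for 1 and 2 members. No such count over all genes is given here, so these 2 counts have no background. Whether depth played a part in those members was not tested.

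The members did not form 1 block that rose and fell together. Over the 2211 pairs of members the median r was 0.033, and only 2 pairs exceeded 0.9, leaving 63 members with no such partner. Different members were thus high in different animals. No member separated the library sets in the pituitary or in the hypothalamus, and only 0.0982% and 0.277% of all genes past the filter did, so a count of 0 members says nothing particular about them.

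Several shapes of variation were told apart from the largest gap between neighbouring libraries on log2(CPM+1), or log2(RPKM+1) in the uterus and liver. A gene was stepped where that gap was at least 1 and at least 50% of the range with at least 2 libraries on each side. It was on/off where every library on the low side was also below 1 CPM or RPKM, single-library where the gap set 1 library apart, and graded otherwise. In the pituitary 6 of the 65 members past the low filter were on/off or stepped, 9.23%, against 0.118% of all genes past it. In the hypothalamus 9 of 64 were, 14.1%, against 0.374%. A wide spread favours such shapes, and spread chose the members, so these shares are a description. Most members, 49 of 67, were graded in both tissues, and 3 were single-library in both, with the same animal apart in both each time. The choice for a high r all but requires that match.

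The shapes recurred in the tissues that did not enter the choice. In the uterus 13 of 56 members were on/off or stepped, 23.2%, where all 14200 genes past the filter, at least 0.1 RPKM in 2 libraries, gave 0.282%. In the liver 10 of 62 were, 16.1%, where all 14884 genes gave 0.249%. The members were chosen for spread in other tissues of the same animals and all genes were not. These shares too are therefore a description. On/off or stepped members of the uterus had between 3 and 10 high libraries of 12. For all 8 members on/off or stepped in both the uterus and the liver, the number of high libraries was the same in the 2 tissues. That count needs no animal number. It was not made over all genes, so it has no background and is also a description. In the ovaries only 12 members passed the filter on each side, and 2 of them on the left and 1 on the right were on/off, where 4.62% and 3.74% of all genes were on/off or stepped at that depth.

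**Figure D2:**
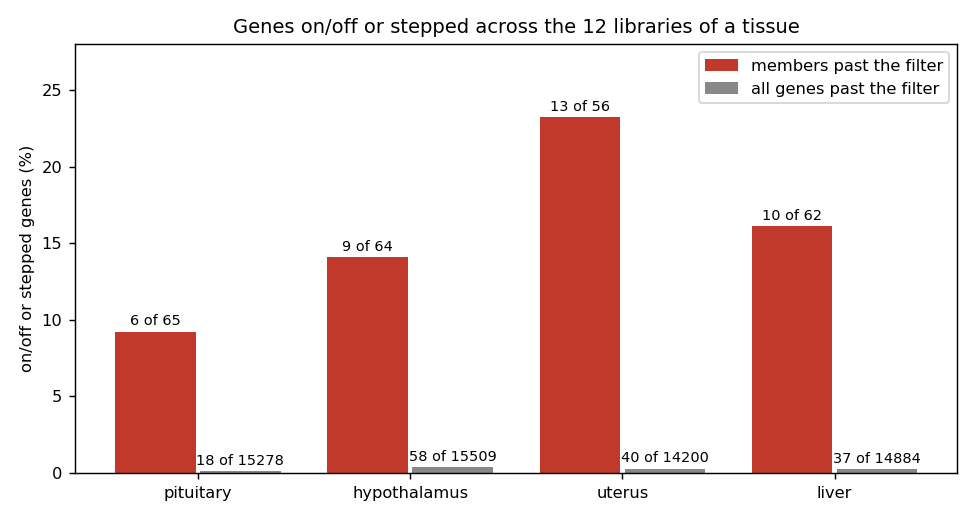
Share of genes, in percent, whose 12 libraries of a tissue split into a high and a low group (on/off or stepped), for the members (red) and for all genes past the low filter (grey), with the numbers above each bar. The members' share was 9.23% in the pituitary, 14.1% in the hypothalamus, 23.2% in the uterus and 16.1% in the liver, while all genes stayed below 0.4% in each.

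In the pituitary and hypothalamus alike, 4 members were on/off and 1 was stepped. For 3 of the 5, all 12 animals were in the same state in both tissues, and for the other 2, 11 of 12 were. The choice for a high r favours such matches, so they are a description. Between 4 and 9 animals were high among the on/off members. Their low libraries reached at most 0.910 CPM in the pituitary and 0.707 CPM in the hypothalamus, and their high libraries began at 3.61 CPM and 3.91 CPM. Of the 19 low values in the hypothalamus, 12 were at 0 reads.

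ENSBTAG00000027412 was the most abundant on/off member. In the pituitary it had a lowest, median and highest level of 0.278, 6.78 and 22.4 CPM in post-pubertal heifers, against 9.29, 12.2 and 24.1 CPM in pre-pubertal heifers. In the hypothalamus the levels were 0, 13.4 and 60.2 CPM in post-pubertal heifers, against 27.3, 30.7 and 52.7 CPM in pre-pubertal heifers. In both tissues 3 of 6 post-pubertal and 6 of 6 pre-pubertal animals were high and the state of each of the 12 animals was the same in both.

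The same 12 states of ENSBTAG00000027412 were found again in the uterus. The uterus values carry no sign, so any level under 1 RPKM there rests on a sign recovered from whole reads, as described under processing. There its lowest, median and highest levels were 0.0965, 0.233 and 23.9 RPKM in 5 post-pubertal heifers, against 10.2, 16.3 and 34.5 RPKM in 5 pre-pubertal heifers. In the liver the levels were 0.775, 107 and 204 RPKM in post-pubertal heifers, against 96.6, 142 and 207 RPKM in pre-pubertal heifers. Over all 12 libraries the liver held 9 high and 3 low ones, as did the other 3 tissues. However, only 6 of the 12 animal numbers had the state they had in the hypothalamus. The puberty groups overlapped in each of the 4 tissues.

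ENSBTAG00000037991, the other named on/off member, was low in some heifers of each puberty group. Its lowest, median and highest pituitary levels were 0.170, 21.3 and 72.1 CPM in post-pubertal heifers, against 0.165, 21.4 and 32.5 CPM in pre-pubertal heifers. Hypothalamus levels were 0, 11.7 and 21.9 CPM in post-pubertal heifers, against 0.640, 8.52 and 24.9 CPM in pre-pubertal heifers. High libraries numbered 8 in the pituitary and 9 in the hypothalamus, and 11 of 12 animals had the same state in both. The medians of the 2 groups nearly coincided in the pituitary and the ranges overlapped throughout.

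In the uterus ENSBTAG00000037991 had 0.316, 9.19 and 14.7 RPKM as its lowest, median and highest level in post-pubertal heifers, against 0.103, 11.8 and 13.0 RPKM in pre-pubertal heifers. In the liver it had 0.302, 4.56 and 10.6 RPKM in post-pubertal heifers, against 0.318, 4.35 and 5.40 RPKM in pre-pubertal heifers. Its spread was graded in these tissues by the definition above, and the largest gap left 8 libraries on the high side in each. Of the 12 animal numbers, 11 had the hypothalamus state in the uterus and 5 in the liver.

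ENSBTAG00000004526 was graded in the pituitary, hypothalamus, uterus and liver. Its lowest, median and highest levels were 60.2, 97.2 and 118 CPM in the pituitary of post-pubertal heifers, against 54.9, 101 and 120.1 CPM in pre-pubertal heifers. In the hypothalamus they were 36.4, 63.6 and 88.1 CPM in post-pubertal heifers, against 34.6, 63.0 and 83.1 CPM in pre-pubertal heifers. In the pituitary and in the hypothalamus 2 libraries, 1 of each puberty group, lay apart at the low end. Uterus levels ran from 269 to 776 RPKM in post-pubertal heifers, against 489 to 703 RPKM in pre-pubertal heifers, and liver levels from 250.4 to 566 RPKM against 265 to 773 RPKM.

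ENSBTAG00000014904 was also graded, and was higher in the hypothalamus than in the pituitary. Its pituitary levels were 18.5, 29.0 and 58.0 CPM in post-pubertal heifers, against 18.6, 37.8 and 44.9 CPM in pre-pubertal heifers, as lowest, median and highest. In the hypothalamus they were 70.5, 160.5 and 213 CPM in post-pubertal heifers, against 79.5, 155 and 252 CPM in pre-pubertal heifers. Each puberty group had 3 high and 3 low animals in the hypothalamus. Uterus levels ran from 15.5 to 43.6 RPKM in post-pubertal heifers, against 17.4 to 42.4 RPKM in pre-pubertal heifers, and liver levels from 16.5 to 29.6 RPKM against 13.9 to 33.1 RPKM.

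**Figure D3:**
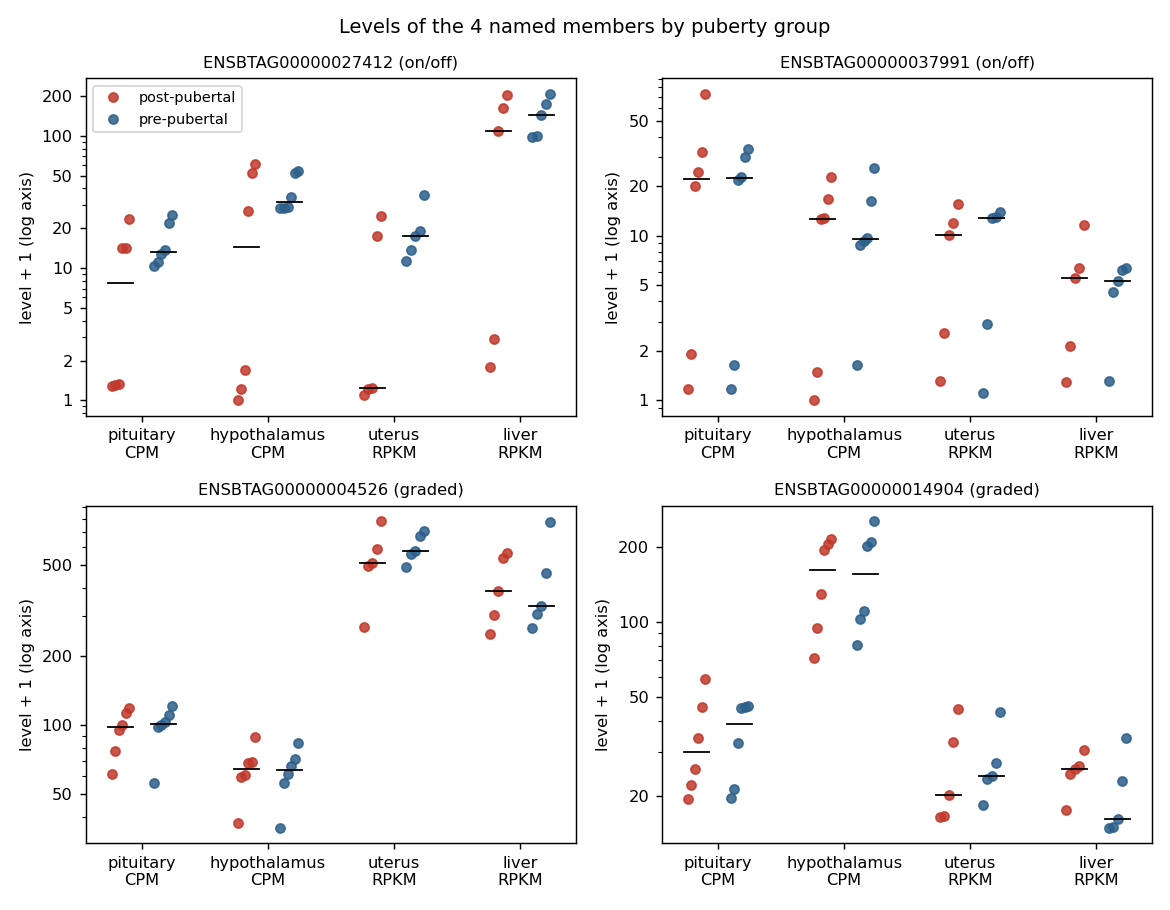
Level plus 1 on a log axis of the 4 named members in each library of pituitary and hypothalamus (CPM) and uterus and liver (RPKM), with post-pubertal libraries in red left of pre-pubertal libraries in blue and a bar at each median; the uterus and liver panels leave out the 2 animals with conflicting labels. CPM and RPKM are different scales. ENSBTAG00000027412 splits into a high and a low cloud in all 4 tissues and ENSBTAG00000037991 in pituitary and hypothalamus, while the 2 graded members spread without such a gap.

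Whether the variation reached the uterus was tested for every gene by regressing its log2(RPKM+0.5) level there on the mean of its centred levels in pituitary and hypothalamus, over the 12 animal numbers. Of the 55 members past the filters, 25 had a positive slope at an adjusted p under 0.05 (limma-moderated regression, Benjamini-Hochberg over 13111 genes), 45.5%, where 0.473% of all genes had one. The 25 members were among only 62 genes called. No member and no other gene had a negative slope past the threshold. The median r was 0.81 over the members and 0.20 over all genes, 28 of the 55 members exceeded 0.8, and 54 were above 0. Uterus, pituitary and hypothalamus of an animal share the animal and its library set. The members were chosen for a wide spread, and a wider spread makes a slope easier to call. Their median SD was 0.71 in the pituitary and 0.66 in the hypothalamus, against 0.33 and 0.27 over all genes past the low filter. All genes are therefore no background of like spread, here or in the other tissues.

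The count in the uterus did not rest on the animals with conflicting labels. Without animals 2054 and 2059 it was again 25 of 55 members, where 0.45% of all genes were called, with a median r of 0.85. Within the library sets the median r was 0.87 in the first and 0.73 in the second, and with each set centred 24 members were called. With ranks in place of values neither a member nor any other gene passed the threshold, while 29 of 55 members, 52.7%, had a positive slope at an unadjusted p under 0.05, against 9.1% of all genes. In bulk tissue, fewer cells of a type and less RNA per cell cannot be told apart for any of these levels.

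Members of each shape took part. Of the 5 members on/off or stepped in pituitary and hypothalamus, 4 were called in the uterus, and of the 41 graded in both, 18 were, with a median r of 0.70. ENSBTAG00000027412 had a slope of 1.16 ± 0.04 (SE), on log2 scales of RPKM+0.5 and CPM+1 (limma adjusted p = 1.24e-09), and its 12 of 12 states matched. ENSBTAG00000037991 had a slope of 0.87 ± 0.12 (SE, limma adjusted p = 0.0049), with 11 of 12 states matched. Both form a high and a low group in pituitary and hypothalamus, so these slopes rest mainly on the gap between the groups. For ENSBTAG00000027412 the uterus held 9 high and 3 low animals. The SEs and p-values of these straight lines are therefore not read beyond the matched states, and with ranks neither member was called.

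The graded ENSBTAG00000014904 varied in the uterus with an r of 0.909 (permutation p = 0.00029, adjusted p = 0.00156) and a Spearman's rho of 0.881 (permutation p = 0.00039, adjusted p = 0.00156). Without the 2 animals farthest from the median its r was 0.880, and it was 0.847 and 0.991 within the library sets. The graded ENSBTAG00000004526 had an r of 0.668 (permutation p = 0.026, adjusted p = 0.0697) and a Spearman's rho of 0.538 (permutation p = 0.0764, adjusted p = 0.153), which did not pass the correction. Without the 2 farthest animals its r was 0.189, so the relation rested on those animals, and it was 0.509 and 0.627 within the library sets. These permutation tests were two-sided, with 8 tests in the family, 4 relations by 2 measures, since on/off members were given no pooled r.

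In the liver the members did not follow the animal numbers. Of 59 members past the filters 1 had a positive slope past the threshold, 1.69%, where 0.00771% of all genes had one, and the median r was -0.15 over the members and -0.00 over all 12978 genes. That member was also the only gene called, and without animals 2054 and 2059 neither it nor another gene was. Within the library sets the median r of the members was -0.02 and 0.07. ENSBTAG00000014904 had an r of -0.319 (permutation p = 0.301, adjusted p = 0.481) and a Spearman's rho of -0.280 (permutation p = 0.377, adjusted p = 0.503), and r was -0.489 without the 2 farthest animals. For ENSBTAG00000004526 r was -0.121 (permutation p = 0.716, adjusted p = 0.816) and Spearman's rho was -0.0769 (permutation p = 0.816, adjusted p = 0.816).

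The liver levels followed the other tissues once libraries of the same letter were exchanged between the 2 liver sets, a pairing read from the file names. The exchange was listed with earlier results on it known, so the values below describe it and are no independent evidence. Then 25 of 59 members had a positive slope past the threshold, 42.4%, where 0.601% of all genes had one, and 5 of all genes but no member had a negative one. The median r was 0.78 over the members and 0.05 over all genes, 27 members exceeded 0.8, and the median was 0.84 and 0.78 within the library sets. All 5 members on/off or stepped in pituitary and hypothalamus were called. ENSBTAG00000027412 had a slope of 1.43 ± 0.06 (SE, limma adjusted p = 2.98e-09) and ENSBTAG00000037991 a slope of 0.66 ± 0.06 (SE, limma adjusted p = 6.25e-05). As in the uterus, the slopes of these 2 on/off members rest mainly on the gap between high and low animals.

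The states told the same in counts. For the 4 members with a step in pituitary, hypothalamus and liver, between 6 and 8 of 12 animal numbers had the same state in the liver as in the hypothalamus under the deposited numbers. After the exchange between 11 and 12 did, the same as in the uterus, where 3 of the 4 matched in all 12. Earlier results of these data, which included the exchange, were known when it was listed, so it is no independent evidence on the liver numbers. Whether the labels, the files or the animals differ there was not tested.

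**Figure D4:**
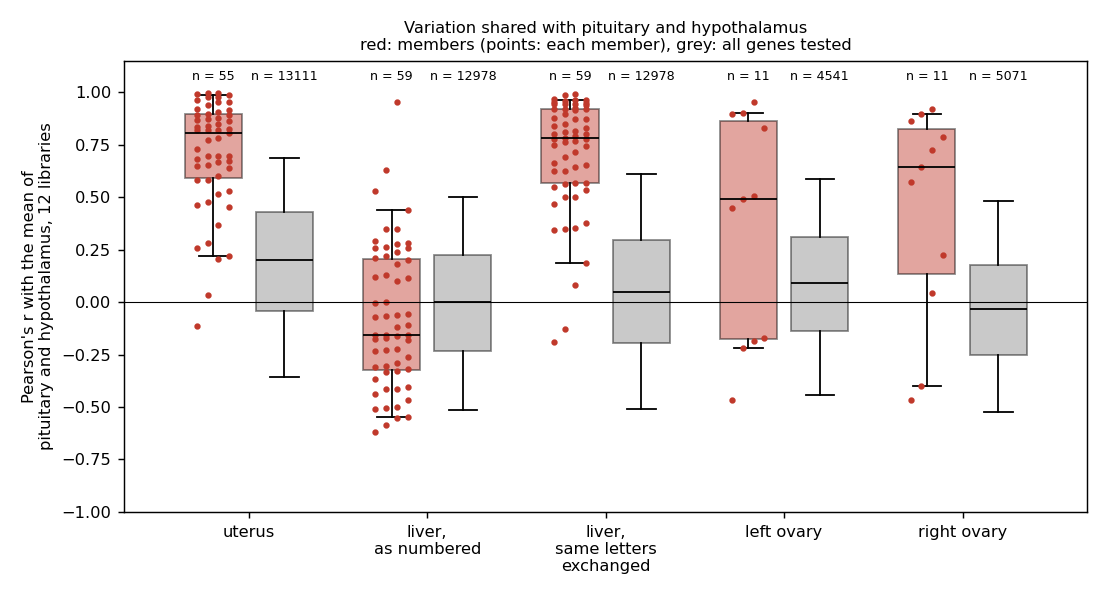
Pearson's r, over 12 libraries, between a gene's level in a tissue and the mean of its centred levels in pituitary and hypothalamus, for the members (red, 1 point each) and for all genes tested (grey); boxes show quartiles with the median, and whiskers the range from 5% to 95%. The members' median was 0.81 in the uterus, -0.15 in the liver as numbered, 0.78 in the liver with same-letter libraries exchanged, 0.49 on the left side of the ovaries and 0.64 on the right.

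Uterus and liver were also set against each other, which uses no value from the choice of the members. As numbered, the median r between them was -0.11 over 55 members and -0.05 over 13435 genes, and no member exceeded 0.8. With same-letter liver libraries exchanged, an arrangement listed with earlier results on it known, the median was 0.69 over the members and 0.06 over all genes. An r above 0.8 was then reached by 20 members, 36.4%, and by 0.603% of all genes. Without animals 2054 and 2059, 27 members exceeded 0.8, 49.1%, against 1.38% of all genes.

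In the ovaries few members could be followed. A member had a median of 4 reads over all 12 left ovary libraries and of 5 over the right ones, and 16 and 18 members had none. Of the 11 members past the filters on each side, 4 had a positive slope past the threshold in the left ovary, 36.4%, where 0.176% of 4541 genes had one. In the right ovary 1 had, 9.09%, where 0.0394% of 5071 genes had one. The median r was 0.49 over members and 0.09 over all genes on the left, and 0.64 over members and -0.03 over all genes on the right.

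The called ovary members were among those with more reads. All 4 called on the left were among the 6 members tested with at least 100 reads, whose median r was 0.86, and none of the 5 below that number was called. On the right the median r was 0.76 for 6 such members and 0.57 for the 5 below. Set against each other, right and left ovary gave a median r of 0.77 over the 9 members past the filter on both sides, and of 0.11 over 4524 genes. The right ovary count was 4 of 45 members without a filter on low counts, where 13 of 13369 genes were called, and 3 of 11 without animal 2047, where 7 of 5071 were. However, neither a member nor another gene was called with ranks in either ovary. The right ovary count thus changed with 1 library or 1 setting. It was 1 to 3 without single animals and 0 only with ranks.

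One member, singled out after its values were seen, was called in both ovaries. ENSBTAG00000040304 had 0, 111 and 208 CPM as its lowest, median and highest left ovary level in post-pubertal heifers, against 0, 9.14 and 593 CPM in pre-pubertal heifers. In the right ovary it had 0, 69.0 and 178 CPM in post-pubertal heifers, against 0, 13.3 and 379.6 CPM in pre-pubertal heifers. Levels were high in some animals of each puberty group and 0 in others. The slope on pituitary and hypothalamus was 3.06 ± 0.26 (SE, limma adjusted p = 2.51e-07) on the left and 2.41 ± 0.28 (SE, limma adjusted p = 8.31e-05) on the right. In the pituitary it had 0 to 10.96 CPM in post-pubertal heifers, against 0 to 15.5 CPM in pre-pubertal heifers.

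**Figure D5:**
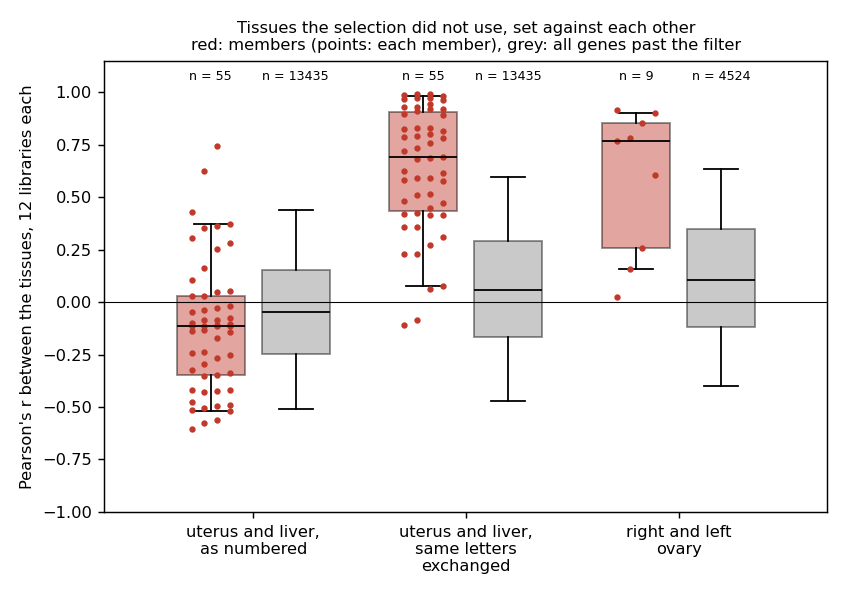
Pearson's r between uterus and liver levels, as numbered and with same-letter liver libraries exchanged, and between right and left ovary levels, over 12 libraries of each tissue, for the members (red, 1 point each) and for all genes past the filter (grey); boxes show quartiles with the median, and whiskers the range from 5% to 95%. The members' median was -0.11 between uterus and liver as numbered, 0.69 after the exchange and 0.77 between the ovaries, above the grey median in the last 2 cases.

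No member was called between the puberty groups in the pituitary or the hypothalamus. In the pituitary 0 of 43 members tested passed an adjusted p under 0.05 (edgeR quasi-likelihood test), as did 0% of 13335 genes, and 3 members had an unadjusted p under 0.05, 6.98%, against 1.52% of all genes. In the hypothalamus 0 of 49 passed, as did 0% of 13713 genes, and 2 members had an unadjusted p under 0.05, 4.08%, against 3.46%. DESeq2 also called 0 of 67 members in each, where it called 0 of 19339 genes in the pituitary and 1 of 19461 in the hypothalamus. The log2 changes of the members ran from -1.38 to 1.67 in the pituitary and from -0.86 to 1.38 in the hypothalamus. Their median size was 0.22 and 0.25, against 0.09 and 0.11 over all genes.

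The on/off members had wide errors in this comparison. ENSBTAG00000027412 changed by -0.79 ± 0.83 (SE, edgeR adjusted p = 0.9999) in the pituitary and by -0.63 ± 0.95 (SE, edgeR adjusted p = 0.980) in the hypothalamus. In the uterus its change was -2.70 ± 1.04 (SE, limma adjusted p = 0.176) and in the liver -2.43 ± 1.36 (SE, limma adjusted p = 0.9999). In the uterus 2 of 5 post-pubertal and 5 of 5 pre-pubertal animals were in the high state, and in the liver 3 of 5 and 5 of 5 were. Number 2059, left out here and labelled pre-pubertal in the liver, was low there at 1.51 RPKM. ENSBTAG00000004526 and ENSBTAG00000014904 changed by at most 0.34 in size on the log2 scale in any of the 4 tissues.

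In the uterus 1 of 49 members passed (limma, 5 heifers against 5), 2.04%, where 3.9% of 13015 genes did, and 8 members had an unadjusted p under 0.05, 16.3%, against 19.9%. The member called was ENSBTAG00000048228, named after its values were seen. It fell to 12.6 ± 3.58 RPKM in post-pubertal heifers, against 24.6 ± 6.73 RPKM in pre-pubertal heifers (SD, n = 5 each), a log2 change of -0.94 ± 0.23 (SE, limma adjusted p = 0.0434). The post-pubertal libraries ran from 8.84 to 17.5 RPKM and the pre-pubertal ones from 17.9 to 34.4 RPKM, without overlap. With library set as a term 0 members were called, where 453 of 13015 genes were. With animals 2054 and 2059 added as labelled for the uterus 4 of 51 members were called, where 1598 of 13135 genes were, and with their label in the other tissues 0 members and 0 genes were. The call was also lost on leaving out animal 2046, 2047, 2049, 2055, 2056, 2057, 2060 or 2061, and 2 members were called without animal 2064.

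In the liver 0 of 43 members passed (limma), as did 0% of 11697 genes, and 3 members had an unadjusted p under 0.05, 6.98%, against 1.71% of all genes. The liver groups rest on the deposited liver numbers and labels, the exchanged ones were not used for puberty, and leaving out the numbers 2054 and 2059 would drop other animals if the exchange held. In the left ovary 0 of 7 members passed with edgeR, as did 0% of 1922 genes, and 1 had an unadjusted p under 0.05, against 5.31%. In the right ovary 0 of 7 passed, where 2.41% of 2073 genes did, and 0 had an unadjusted p under 0.05, against 18.3% of all genes. DESeq2 called 0 of 51 members on the left, where it called 0 of 15815 genes, and 0 of 49 on the right, where it called 180 of 15978 genes.

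Compared within animals, 33 of 45 members differed in mean level (edgeR quasi-likelihood test with the animal as a block), 73.3%, where 80.3% of 13732 genes did. Of these, 16 were higher in the pituitary, against 40.4% of all genes, and 17 were lower, against 39.9%. The median size of the log2 difference was 0.78 over the members and 0.72 over all genes. The members were chosen for moving together in these same libraries, which lowers their spread in a test within animals, so their share of calls is a description and is not read against that of all genes. Without the block 23 of 45 members and 10954 of 13732 genes were called.

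The same choice lowers the errors and p-values of the named members in the test within animals, so these too are a description. ENSBTAG00000014904 was the named member with the largest difference, -2.27 ± 0.08 (SE, edgeR adjusted p = 5.56e-13), that is lower in the pituitary. ENSBTAG00000027412 was also lower in the pituitary, by -1.38 ± 0.13 (SE, edgeR adjusted p = 6.42e-08). ENSBTAG00000004526 was higher in the pituitary, by 0.54 ± 0.07 (SE, edgeR adjusted p = 1.60e-06), and ENSBTAG00000037991 had a difference of 0.70 ± 0.34 (SE, edgeR adjusted p = 0.0723), which did not pass.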

How the data were processed

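The members, the shapes and the list of alternatives were chosen with earlier results of these data known. Files deposited by the authors hold raw gene-level counts for pituitary, hypothalamus and ovaries, RPKM values for the liver, and for the uterus values on a log2 scale, found to be the absolute value of log2(RPKM+0.001). RNA was prepared with a TruSeq kit and sequenced as paired ends, per the labels' protocols. The genome build is UMD 3.1, per the submitters' processing notes. The sources used here do not name the aligner, the counter, the annotation or the use of strand. Overlapping or near-identical genes may therefore share reads, and a member may be 1 of several such copies. Rows for reads in no gene, a median of 56.4% in the pituitary, 58.6% in the hypothalamus, 89.7% in the left and 89.8% in the right ovary, stayed out.

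The liver RPKM values gave back whole reads for 17852 of 17853 genes, within 0.003 reads, and for 0 of 300 genes with shifted library totals. The lost signs of the uterus values were read from whole reads: 27679 of 173244 values, 16.0%, were below 0, and 1351, 0.780%, were not settled. On data simulated around the recovered reads, 99.96% of signs came back, over values above and below 0 together. That simulation used the same lengths, library totals and offset, so it cannot test the assumed form of the values. Only 14437 genes are listed for the uterus, 56 members among them.

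Groups come from the labels. Counts were tested with edgeR 4.0.16 (TMM factors, filterByExpr, robust quasi-likelihood F test), with DESeq2 1.42.0 as an alternative, and liver and uterus RPKM with limma 3.58.1 on log2(RPKM+0.5), at 0.5 RPKM or more in 5 libraries. Slopes used limma-moderated variances on log2(RPKM+0.5) or, in the ovaries, log2(CPM+1). Tests were two-sided, adjusted by Benjamini-Hochberg over all genes tested, and tried on simulated data. Permutation tests used 100000 resamples. Animals are the replicates. In pituitary, hypothalamus and ovaries no 2 libraries of a group were duplicates: the mean chi-square per gene was at least 2.89. Uterus and liver libraries were not checked for duplicates. Pituitary and hypothalamus were paired by the labelled animal number. Over 10340 genes, members left out, their deviations had a median r of 0.091 within an animal and -0.011 between animals, and 5 of 12 animals exceeded 0.1. The r within an animal ran from -0.032 to 0.287. For only 5 of 12 animals was the best match of the hypothalamus library the pituitary library of the same number, so this check is weak. The 4 named members are the 2 with the highest mean log2(CPM+1) among those on/off in both tissues and the 2 among those graded in both. None of the 34142 genes of the RefSeq table at hand matched an identifier of the files, so no names, marker genes, sequences or coordinates are given. Lengths were used only where the median read number reached a minimum of 20. They covered 48 of 67 members, fewer than 80%. These members had a median length of 1104 bases, against 1994 over 12775 genes, and 41 members were shorter than that. Whether length plays a part was not tested.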

Additional observations from a re-analysis of the deposited data

Results flagged for a closer look

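ENSBTAG00000004526 had its lowest pre-pubertal pituitary value, 54.9 CPM, far from the rest: the nearest of the other 5 libraries of the group was at 97.1 CPM, and that gap spanned 0.648 of the range of the group. It was the only value that stood out in 32 groups of the named members' libraries, where chance gives 1.6.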

How the results depend on the processing

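Of 67 members, TMM factors gave 72 genes (61 of them members), log2(CPM+0.5) 75, and centring within puberty group or library set 71 each. Only genes kept by filterByExpr in both tissues left 40, Spearman's rho above 0.8 gave 39, r above 0.9 gave 19 and SD above 0.5 gave 44. Leaving out each animal gave 63 to 96, the most without animal 2054. The 25 members called in the uterus were 17 to 29 under the other planned settings, 18 to 25 without single animals, 27 with uterus animals 2054 and 2059 exchanged (chosen after seeing the data) and 0 with ranks. In the liver the 1 member called was 1 without any single animal, 0 with ranks, with the hypothalamus alone and without animals 2054 and 2059, and 25 with same-letter libraries exchanged. In the left ovary the 4 called were 0 with ranks and 3 to 4 without single animals. In the right ovary the 1 called was 4 without a filter, 2 with library sets centred, 3 with puberty groups centred, 0 with ranks, 2 with the hypothalamus alone and 1 to 3 without single animals. For puberty in the uterus the 1 member was 0 with library set as a term, 4 with animals 2054 and 2059 as labelled there, 0 with their other label and 0 to 2 without single animals. The puberty counts of 0 in the other 5 tissues were 0 under every alternative run. The cause of these shifts was not tested. The replicate block matters between pituitary and hypothalamus: 33 members were called with it and 23 with no replicate block, 39 of 67 without a filter or with DESeq2, and 30 to 34 without single animals. Puberty groups hold different animals, so a block applies to no other comparison. Ovary depth, with a median of 4 and 5 reads per member, limits what could be seen there.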

Other observations

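Beyond the 67 members, 91 genes had an r above 0.8 between pituitary and hypothalamus with an SD at or below 0.35 in at least 1 of the 2 tissues.

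The only member called in the liver under the deposited numbers, ENSBTAG00000011985, singled out after its values were seen, was called under both numberings. Its slope was 0.63 ± 0.06 (SE, limma adjusted p = 0.000599) as numbered and 0.62 ± 0.07 (SE, limma adjusted p = 0.000125) with same-letter libraries exchanged. Its liver level ran from 0.197 to 2.03 RPKM in post-pubertal heifers, against 0.135 to 1.89 RPKM in pre-pubertal heifers, so the groups overlapped.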
